A study of Mus musculus with 49 samples.

Results

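Long intergenic noncoding RNAs (lincRNAs) that were well covered in CONTROL embryos were followed through the loss of 2 transcription factors in single late 2-cell mouse embryos. The set held 133 of the 5624 lincRNA genes in the count tables, which listed 54838 genes in all. A gene was taken as a member if GENCODE typed it as lincRNA and if its mean raw count was at least 20 over the CONTROL embryos injected with mouse IgG. Measured values therefore chose the members, and the embryos that chose them are also the CONTROL arm of the TBP comparison. Just inside the limit lay Gm1070 with a mean of 20.2 reads, A430105J06Rik with 21.0 and Gm47648 with 21.9. Just outside it lay Gm46332 with 19.9, Gm26899 with 19.6 and Gm20625 with 19.4.

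A lincRNA is transcribed by RNA polymerase II from between coding genes, is usually capped, spliced and polyadenylated, and encodes no known protein. In mouse the late 2-cell stage is the time of major zygotic genome activation, when the embryo starts to transcribe many of its own genes and maternal transcripts are being lost. TBP binds the TATA box as part of TFIID and helps to place RNA polymerase II at a start site. FOXJ3 is a forkhead protein, a family that binds short sequences through a winged helix domain.

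The embryos were offspring of F1 females and F1 males of the strains C57BL/6J and CBA/H. Zygotes received an antibody and, 4 h later, mRNA for mCherry-Trim21, and were collected 48 h after hCG, the hormone given to trigger ovulation. In this approach, Trim-Away, TRIM21 leads a protein bound by antibody to degradation. TBP LOF embryos received anti-TBP and FOXJ3 LOF embryos anti-FOXJ3, whereas CONTROL embryos received normal mouse IgG (mIGG) or normal rabbit IgG (rIGG). All 4 groups thus carried mCherry-Trim21 and an antibody, and no group was left without injection. Reads of transcript 5′ ends were counted for each embryo, and 47 of 49 embryos passed quality control: 9 TBP LOF, 9 mIGG CONTROL, 16 FOXJ3 LOF and 13 rIGG CONTROL. Each embryo that passed held between 1103569 and 5434808 counted reads. The FOXJ3 embryos came from 2 library batches, and the collections of the TBP embryos are not tied to samples in the labels. The p-values therefore measure the spread between these embryos.

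Trim-Away acts on the protein, so that the target's transcript does not check the labels. Tbp mRNA was nevertheless lower in the TBP LOF embryos, with a lowest, median and highest normalised read count of 6.59, 83.3 and 151 against 196, 280 and 672 in mIGG CONTROL (log2 fold change −2.14, edgeR adjusted p = 5.26e-06). Foxj3 mRNA did not pass the test upon FOXJ3 LOF (log2 fold change 0.28, edgeR adjusted p = 0.864). Summed CPM (counts scaled to library size) of 10 late 2-cell markers had a median of 1032 in TBP LOF, 325 in mIGG CONTROL, 497 in FOXJ3 LOF and 630 in rIGG CONTROL. Summed CPM of 8 oocyte and zygote markers had medians of 2529, 1339, 1615 and 1897 in the same order. The sum of 10 cumulus and granulosa markers did not exceed 70.7 CPM in any embryo, and Fshr was at 0 in all groups. Of the 10, 4 had a read in TBP LOF, 5 in mIGG CONTROL, 7 in FOXJ3 LOF and 6 in rIGG CONTROL. Amhr2 was found in all groups, with medians of 14.2, 18.9, 19.7 and 24.2 CPM in that order. The median sum of 6 markers of inner cell mass and trophectoderm lay between 3.24 and 6.60 CPM, and the highest was 42.8 CPM in rIGG CONTROL embryo 2 of batch 1. Fewer cells of a type and less RNA per cell cannot be told apart in such whole-embryo libraries.

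The members lay on 20 chromosomes, with 14 each on chromosomes 6 and 13 and 12 on chromosome 7. Their annotated exons covered a median of 1629 bases and ranged from 196 to 8306 bases. Of the 133 members, 5 had a single exon, 42 had 2 exons and 86 had 3 or more. In 106 of them a read was found in each of the 47 embryos, and the member found least often had a read in 42. Of the 133, 37 shared the start of their transcript with another member, and the starts are shown here because the values upon TBP LOF are given by these sets. Starts were compared over the first 200 bases of each annotated transcript (GENCODE M21, GRCm38), and a match needed 50 aligned bases at 75% identity. In genes outside the members the first 300 bases were searched, so a match there need not lie at the very start. Matches of any transcript were chained into sets, so that members of a set need not all match each other. The sets were made from sequence alone, but the search was chosen after fold changes had been seen.

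The largest set held 22 members, and matches to any of their starts were found near the start of transcripts of 173 other genes, 90 of them coding. Capitals mark the stretch that aligned with the start of Gm40910 (chr13:35052727-35083260, plus strand). Gm48578 (chr12:47532257-47544289, plus strand) matched it at 100% over 79 bases, and Gm44172 (chr6:71451992-71458998, plus strand) at 93.7% over 79 bases. All starts are written 5′ to 3′ along the spliced transcript, and the intervals are those of the whole genes.
Gm40910: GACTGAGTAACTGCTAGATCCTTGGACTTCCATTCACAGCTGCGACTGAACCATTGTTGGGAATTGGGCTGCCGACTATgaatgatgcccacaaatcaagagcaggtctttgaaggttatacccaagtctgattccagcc
Gm48578: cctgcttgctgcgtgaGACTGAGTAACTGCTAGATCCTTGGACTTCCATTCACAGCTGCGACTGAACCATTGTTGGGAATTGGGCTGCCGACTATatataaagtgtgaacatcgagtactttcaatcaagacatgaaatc
Gm44172: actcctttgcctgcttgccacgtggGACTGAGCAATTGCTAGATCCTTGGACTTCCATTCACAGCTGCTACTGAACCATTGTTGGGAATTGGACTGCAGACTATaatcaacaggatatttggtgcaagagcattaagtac

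A set of 4 members began like genes of zinc finger proteins. Their starts were also found in 243 other genes, of which 152 were coding and 82 of these were named as zinc finger genes. Capitals mark the stretch aligned with Gm47467 (chr13:74509598-74522461, minus strand). Gm46430 (chr13:74579358-74617945, minus strand) matched it at 91.7% over 108 bases and EU599041 (chr7:43214039-43226842, plus strand) at 76.9% over 160 bases. The remaining member of this set was Gm40977, which matched Gm47467 and EU599041 but not Gm46430.
Gm47467: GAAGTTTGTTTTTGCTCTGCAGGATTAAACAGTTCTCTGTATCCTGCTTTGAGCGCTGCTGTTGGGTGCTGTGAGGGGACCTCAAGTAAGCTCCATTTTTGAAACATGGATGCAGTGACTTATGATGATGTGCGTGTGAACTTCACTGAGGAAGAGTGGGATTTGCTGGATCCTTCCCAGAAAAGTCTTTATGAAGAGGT
Gm46430: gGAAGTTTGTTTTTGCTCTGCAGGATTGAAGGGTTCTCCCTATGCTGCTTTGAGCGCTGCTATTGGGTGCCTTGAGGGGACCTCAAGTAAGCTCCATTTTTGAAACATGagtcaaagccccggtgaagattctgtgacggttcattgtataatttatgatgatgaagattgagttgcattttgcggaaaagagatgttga
EU599041: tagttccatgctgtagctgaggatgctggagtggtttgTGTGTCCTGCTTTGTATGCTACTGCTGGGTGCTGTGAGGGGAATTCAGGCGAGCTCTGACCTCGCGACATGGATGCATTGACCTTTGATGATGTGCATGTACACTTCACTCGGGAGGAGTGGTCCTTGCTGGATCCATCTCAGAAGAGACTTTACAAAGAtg

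Another set held 7 members that were joined through different transcripts of A730082K24Rik and did not hold a common start. Their starts were found in 220 other genes. E330010L02Rik and E330016L19Rik matched each other and A730082K24Rik, but not Gm3143 or Gm43269. The start shown is that of Gm3143 (chr3:34699640-34716662, minus strand) and Gm43269 (chr5:119914938-119916846, plus strand). These were 88.5% identical over the 104 bases in capitals of Gm43269.
Gm3143: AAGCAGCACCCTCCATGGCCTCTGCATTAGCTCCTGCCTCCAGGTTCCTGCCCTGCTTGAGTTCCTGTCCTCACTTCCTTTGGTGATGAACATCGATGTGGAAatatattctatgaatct
Gm43269: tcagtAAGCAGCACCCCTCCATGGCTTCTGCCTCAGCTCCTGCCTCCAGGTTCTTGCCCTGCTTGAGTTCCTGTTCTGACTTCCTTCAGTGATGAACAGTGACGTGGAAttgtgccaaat

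Gm45864 (chr8:47773555-47777802, plus strand), a lincRNA with 2 exons, shared its start with no other member. Its first bases are shown for comparison with the sets above.
Gm45864: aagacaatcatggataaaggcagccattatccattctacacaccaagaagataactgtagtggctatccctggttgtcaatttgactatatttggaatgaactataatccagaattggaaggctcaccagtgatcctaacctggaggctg

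Most reads of the set came from a single place. Gm42418 and AY036118 overlap on opposite strands of chromosome 17, in the stretch chr17:39846958-39848788, and took 91.7% of all member reads in mIGG CONTROL. Both gene models are known to overlap sequence of ribosomal RNA, and which RNA gave their reads was not tested. The ratio of AY036118 to Gm42418 reads lay between 0.924 and 0.963 in every embryo that passed, so that the counts of the pair cannot be told apart. Together they made up 5.12%, 9.93% and 13.9% of counted reads in TBP LOF embryos (lowest, median and highest) and 4.26%, 6.86% and 11.4% in mIGG CONTROL. In FOXJ3 LOF the values were 0.951%, 8.26% and 10.5%, and in rIGG CONTROL 1.68%, 6.10% and 10.4%. The 4 groups overlapped throughout. The other 131 members made up means of 0.905 ± 0.139% (SD, n = 9), 0.743 ± 0.119% (n = 9), 0.779 ± 0.122% (n = 16) and 0.846 ± 0.165% (n = 13) of reads in TBP LOF, mIGG CONTROL, FOXJ3 LOF and rIGG CONTROL.

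Per length of exon, AY036118 and Gm42418 again stood first in mIGG CONTROL, with 39823 and 21065 CPM per kb. Gm47979, with only 196 bases of exon, came next at 491 CPM per kb, before Gm48436 at 440, Gm1965 at 266 and Gm26917 at 265. Gm26917 lies next to Gm42418 on chromosome 17. The order of these last 2 is not resolved, since Gm26917 ranged from 68.5 to 6332 normalised reads among mIGG CONTROL embryos. Gm47467 was at 92.0 and Gm45864 at 31.7 CPM per kb, ranks 16 and 39 of 133. Because only 5′ reads were counted, a level per length understates long transcripts.

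Embryos of one group differed widely for most members. The coefficient of variation over embryos had a median of 61.9% in TBP LOF, 49.97% in mIGG CONTROL, 47.1% in FOXJ3 LOF and 54.3% in rIGG CONTROL. Among rIGG CONTROL embryos it was smallest for 4933408J17Rik (20.7%), AU020206 (21.8%) and Gm2694 (27.3%), and largest for Gm15507 (128%), Gm839 (107%) and Gm27010 (103%). Without embryos 2 and 3 of batch 1, which stand apart as described with the higher lincRNAs, the largest 3 came to 46.1%, 32.6% and 64.9%, and the median of members to 45.0%. The smallest 3 came to 21.3%, 16.4% and 29.8%, so that AU020206 then varied less than 4933408J17Rik. Between the 2 kinds of CONTROL embryos, scaled to ERCC spike-ins, the log2 difference of rIGG from mIGG had a median of −0.19 and lay within 1 for 122 of 133. This range ran from −2.27 to 1.13. The antibody and the experiment cannot be told apart in it.

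Upon TBP LOF, 49 of 133 lincRNAs fell and 8 rose, with 76 past neither side of the threshold (edgeR, ERCC scaling, adjusted p under 0.05 over 19356 features). That is 36.8% lower and 6.02% higher, beside 29.7% and 1.34% of all features tested. The split depended on the scaling. With TMM, which sets the bulk of features at no change, 27 members (20.3%) were lower and 46 (34.6%) higher, beside 12.7% and 12.9% of all features. The median log2 fold change of members was −0.29 with ERCC scaling and 0.59 with TMM, against −0.72 and 0.11 for all features. Relative to the median of all features, members thus stood 0.43 higher with ERCC scaling and 0.48 higher with TMM, and 59.4% of them lay above that median under either scaling. ERCC reads took a mean of 4.29 ± 1.19% of reads in TBP LOF and 2.76 ± 0.372% in mIGG CONTROL (SD, n = 9 each).

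Because mIGG CONTROL embryos chose the members, these shares are no independent measure of the response. The same rule applied to rIGG CONTROL embryos, which the TBP comparison does not use, gave 158 lincRNAs, of which 127 were members. Of the 158, 50 fell (31.6%, near the 29.7% of all features) and 11 rose (6.96%, against 1.34%), with a median log2 fold change of −0.14. With TMM, 29 were lower and 64 higher, beside 12.7% and 12.9% of all features. The 31 lincRNAs that only the rIGG CONTROL embryos had chosen held 5 that fell and 3 that rose, at a median of 0.30, beside 29.7% and 1.34% of all features. With TMM 3 of the 31 were lower and 19 higher, at a median of 1.14, beside 12.7% and 12.9%. Without the 2 rIGG CONTROL embryos that stand apart, as described with the higher lincRNAs, the rule gave 145 lincRNAs, of which 51 fell and 10 rose.

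Other kinds of genes past the same minimum are given beside the lincRNAs as a description. Of 6331 protein-coding genes, 57.5% fell and 0.632% rose, with a median log2 fold change of −1.08. Of 135 antisense genes, 88 fell and 1 rose, at a median of −1.39. Of 56 genes typed as processed transcripts, 31 fell and 0 rose, and of 44 of the type TEC, which is still to be experimentally tested, 25 fell and 0 rose. These splits are those of ERCC scaling. With TMM, 27.9% of coding genes were lower and 18.1% higher, as were 37 and 17 antisense genes, 14 and 11 processed transcripts and 10 and 7 TEC genes. These classes were chosen on the same mIGG CONTROL embryos, and their counting may share reads of overlapping genes.

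**Figure D1:**
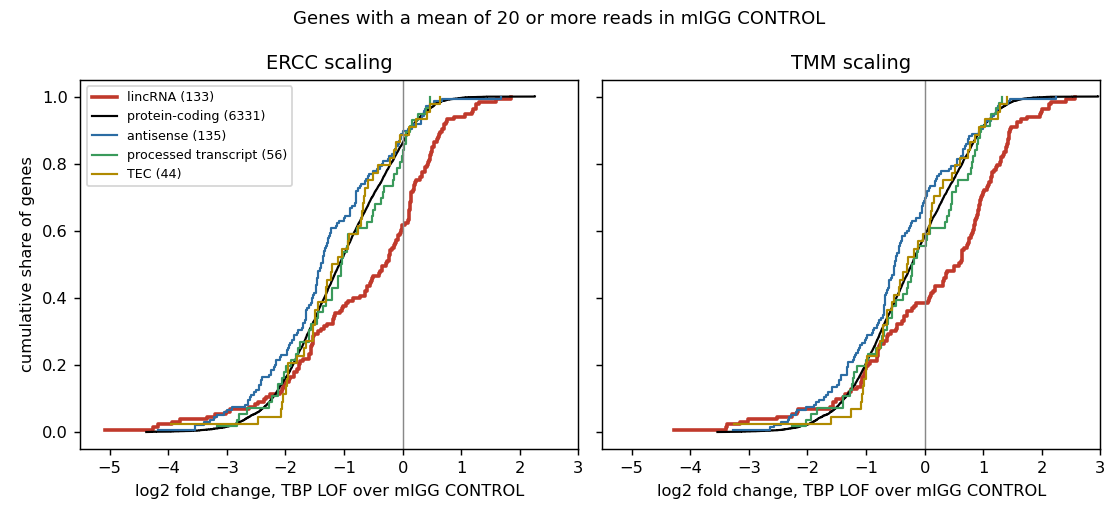
Cumulative share of genes (vertical axis) against the log2 fold change of TBP LOF over mIGG CONTROL (horizontal axis) for lincRNAs, protein-coding and antisense genes, processed transcripts and genes of the type TEC with a mean of 20 or more reads in mIGG CONTROL, scaled to ERCC (left) and by TMM (right). In its middle and upper part the curve of lincRNAs lies to the right of that of coding genes in both panels, though its lower end reaches further left, with medians of −0.29 and −1.08 by ERCC and of 0.59 and −0.22 by TMM.

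In 13 lincRNAs each TBP LOF embryo lay below every mIGG CONTROL embryo, which held for 6.69% of all features, and in 0 did each lie above, which held for 0.0103%. They were Gm47467, Gm45864, D5Ertd605e, 1600025M17Rik, Gm48306, 4930455D15Rik, Snhg6, Gm48746, Gm47979, 4933404O12Rik, 2900097C17Rik, Snhg12 and B020004C17Rik.

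Gm47467 and Gm45864 were almost absent from the TBP LOF embryos. Normalised reads of Gm47467 were at most 9.66 there, with a median of 2.20, while mIGG CONTROL embryos ranged from 33.9 to 151 around 80.1. Gm45864 had 1.45, 3.07 and 9.53 reads (lowest, median and highest) against 38.3, 72.7 and 105. In the FOXJ3 experiment Gm47467 had 8.28, 86.2 and 281 reads in FOXJ3 LOF and 3.28, 78.1 and 280 in rIGG CONTROL, and Gm45864 had 8.21, 68.1 and 168 against 3.28, 67.3 and 125. Groups there overlapped almost fully. Their lowest embryos had counts in the range of TBP LOF, though the 2 experiments were scaled apart and their levels are not on 1 scale. The 2 genes lie on different chromosomes and share no start sequence by the search above.

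D5Ertd605e on chromosome 5 had 0, 1.84 and 8.20 normalised reads in TBP LOF and 24.3, 40.6 and 90.0 in mIGG CONTROL. The groups did not overlap, and the gene fell by 3.94 on the log2 scale (± 0.48 SE, edgeR adjusted p = 8.54e-09). 1600025M17Rik on the X chromosome had 0, 5.74 and 23.8 reads against 89.8, 118 and 153, and fell by 3.80 (± 0.44 SE, edgeR adjusted p = 3.34e-09). Its mIGG CONTROL embryos lay close together, whereas rIGG CONTROL embryos of the other experiment ranged from 13.1 to 389. Gm48306 on chromosome 10, a lincRNA with 2 exons, had 2.20, 15.6 and 41.0 reads against 88.5, 174 and 208, and fell by 3.20 (± 0.37 SE, edgeR adjusted p = 2.23e-09). Gm47979 on chromosome 12 stayed at 27.6, 41.8 and 75.4 reads in TBP LOF but was at 110, 177 and 441 in mIGG CONTROL, and fell by 2.33 (± 0.32 SE, edgeR adjusted p = 1.07e-07). All 4 of these were also lower with TMM. In the other experiment, low levels of such lincRNAs were also found in 2 rIGG CONTROL embryos, numbers 2 and 3 of batch 1. Both were the lowest 2 of 13 rIGG CONTROL embryos in 9 of the 13 lincRNAs whose groups did not overlap upon TBP LOF, with 17.9 and 7.66 normalised reads for Snhg6, 43.8 and 13.1 for 1600025M17Rik and 8.96 and 3.28 for Gm47467. They were the lowest 2 in 18 of the 49 lincRNAs that fell, in 0 of the 8 that rose and in 2 of the 76 past neither side of the threshold. This was noticed after the values had been seen, and what sets these embryos apart was not tested. The same count was not made over all features, so it does not show a trait particular to lincRNAs.

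Host genes of small nucleolar RNAs carry snoRNAs in their introns, and their spliced remainder is counted as a lincRNA. Members were taken by a symbol that starts with Snhg, and introns were not searched for snoRNAs. All 4 members so named fell with ERCC scaling, beside 29.7% of all features, and 1 of them was lower with TMM, beside 12.7%. Snhg6 had 3.66, 19.1 and 41.8 normalised reads in TBP LOF and 74.1, 106 and 278 in mIGG CONTROL, with no overlap (log2 fold change −2.63 ± 0.36 SE, edgeR adjusted p = 6.45e-08). Snhg12 was at 0, 7.48 and 14.8 reads against 15.7, 24.5 and 32.5, again without overlap, and fell by 1.70. Snhg20 and Snhg10 fell by 1.54 and 1.53, with groups that overlapped. The list fixed for naming held the first 3 of them, and Snhg10 was named after its values had been seen. With TMM only Snhg6 remained below the threshold, at a log2 fold change of −1.62.

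Another 3 lincRNAs with a described role were members. Lncenc1, which has been studied in naive embryonic stem cells, had 3.38, 9.83 and 22.1 normalised reads in TBP LOF and 12.2, 35.6 and 48.7 in mIGG CONTROL, and fell by 1.60 with ERCC scaling (± 0.41 SE, edgeR adjusted p = 0.0015) but missed the threshold with TMM. Epb41l4aos, which lies on the other strand next to Epb41l4a, had 3.45, 12.9 and 27.0 reads against 18.5, 36.1 and 87.3, and also fell by 1.60, which TMM did not keep. Malat1, an abundant nuclear RNA of differentiated cells, had 29.0, 162 and 505 reads in TBP LOF and 22.4, 153 and 256 in mIGG CONTROL. The groups overlapped almost fully, with a log2 fold change of 0.45 (± 0.38 SE, edgeR adjusted p = 0.41), although TMM gave 1.12 with an adjusted p of 0.0188 (edgeR).

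Among the members with most reads, B020004C17Rik on chromosome 14 had 46.1, 432 and 916 normalised reads in TBP LOF and 1053, 1298 and 1572 in mIGG CONTROL. The groups were apart, and the gene fell by 1.57 (± 0.34 SE, edgeR adjusted p = 0.00023). Gm45752 on chromosome 8 had 92.5, 215 and 537 reads against 435, 764 and 1342 and fell by 1.77 (edgeR adjusted p = 1.19e-05). Gm26917 fell by 4.18 (± 0.77 SE, edgeR adjusted p = 1.74e-05), from a median of 547 reads to 9.66. Gm26917 is counted below with Gm42418 and AY036118 in the rRNA stretch, and which RNA gave its reads was not tested. A single TBP LOF embryo, number 10, held 770 reads of it, and without that embryo the log2 fold change was −5.86. Gm32913 fell by 1.57 (edgeR adjusted p = 0.028), but its embryos ranged from 0 to 922 reads in TBP LOF and from 181 to 1838 in mIGG CONTROL. That call was lost without TBP LOF embryo 7, 10 or 11, or without mIGG CONTROL embryo 4 or 6 (adjusted p between 0.0504 and 0.077, edgeR), with the DESeq2 Wald test, where the adjusted p was 0.192, and with TMM or DESeq2 size factors (edgeR adjusted p 0.499 and 0.494). C86187 on chromosome 7 did not pass the test, with 830, 1628 and 2885 reads against 320, 1015 and 2388 (log2 fold change 0.63 ± 0.32 SE, edgeR adjusted p = 0.132). It was higher with TMM, at a log2 fold change of 1.46 (edgeR adjusted p = 0.000126), with DESeq2 size factors, and without mIGG CONTROL embryo 6 at 0.83 (edgeR adjusted p = 0.049). Gm42418, AY036118, Gm49064 and Gm48436 had log2 fold changes of −0.35, −0.34, −0.38 and 0.11 and did not pass either. That of Gm48436 was −0.65 without TBP LOF embryo 8 and between −0.01 and 0.28 without any other embryo.

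**Figure D2:**
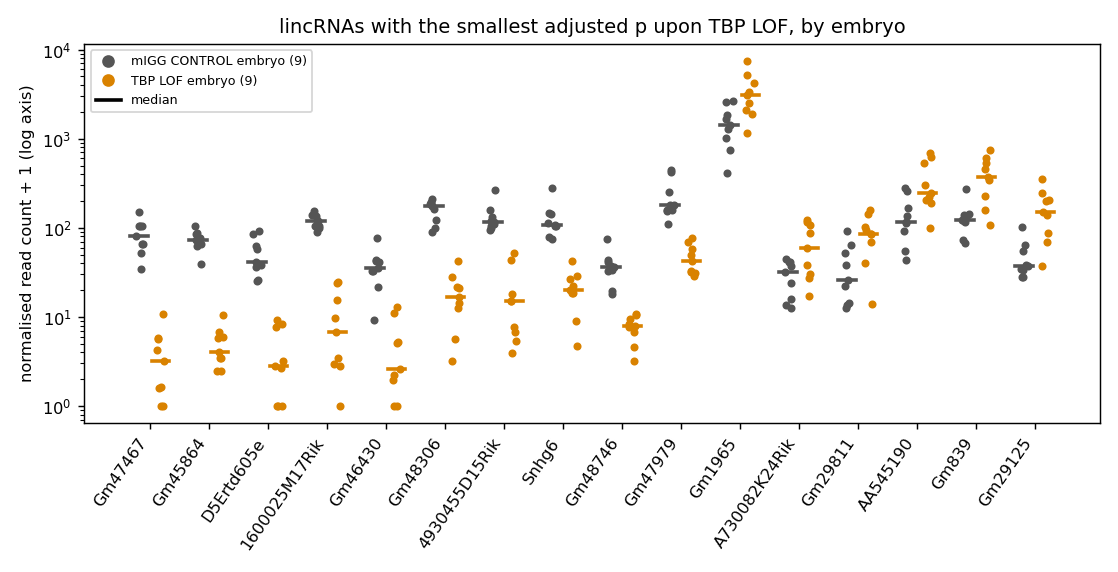
Normalised read count plus 1 on a log axis in each TBP LOF and mIGG CONTROL embryo (points) for the lincRNAs named for the smallest adjusted p upon TBP LOF, lower ones to the left and higher ones to the right. For Gm47467, Gm45864, D5Ertd605e and 1600025M17Rik the groups do not overlap, whereas for each higher lincRNA, such as Gm29125 and Gm839, TBP LOF embryos reach into the range of CONTROL.

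Upon TBP LOF, 8 lincRNAs rose, and each was also higher with TMM. Gm29125 on chromosome 1 had 36.5, 151 and 354 normalised reads in TBP LOF and 27.0, 36.4 and 102 in mIGG CONTROL (log2 fold change 1.84 ± 0.35 SE, edgeR adjusted p = 2.94e-05). Gm839 on chromosome 6 had 108, 374 and 754 reads against 65.7, 121 and 275 and rose by 1.59 (± 0.33 SE, edgeR adjusted p = 9.44e-05). Gm1965, also on chromosome 6 and one of the members with most reads, had 1143, 3064 and 7403 reads against 415, 1417 and 2640 and rose by 1.18 (± 0.34 SE, edgeR adjusted p = 0.00485). AA545190 rose by 1.30, Gm29811 by 1.25, Gm40910 by 1.24, A730082K24Rik by 1.21 and Gm15507 by 1.06. Groups overlapped for all 8. Gm15507 was the only member whose exons overlapped a coding gene on the same strand. Its reads may in part be those of that gene, which was not tested.

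Among CONTROL embryos of the other experiment, the same embryos stood high for most of these 8. The 2 rIGG CONTROL embryos with most reads were embryos 2 and 3 of batch 1 for 7 of the 8, the exception being Gm40910, and for 27 of the 76 that passed neither side. They are the embryos that stood low for lincRNAs that fell. For Gm839 they held 715 and 1038 reads against a median of 172, and for Gm1965 they held 5200 and 8638 against 1950. The same 2 embryos had the highest sums of late 2-cell markers among rIGG CONTROL, 842 and 1150 CPM, and of oocyte and zygote markers, 3036 and 4069 CPM. As given above, both marker sums in CPM had higher medians in TBP LOF than in mIGG CONTROL. With the ERCC scaling used for the lincRNAs, Tcstv3 (median 540 against 82.8 CPM) and Usp17lc of the late 2-cell list rose. The other markers of that list did not pass, with log2 fold changes from −1.24 (Zscan4c) to 0.66 (Tcstv1). Of the 8 oocyte and zygote markers 0 rose and Zp3 fell, and Oosp1, with most of that sum, had a log2 fold change of 0.07 (edgeR adjusted p = 0.901). The part of these sums in the 8 changes was not tested, and the grouping was noticed after the values had been seen. How often these 2 embryos held most reads was not counted over all features.

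Gm1965 and Gm839 lie close together. The stretch chr6:88950683-89216237 (GRCm38) held 4 members: 4933427D06Rik, Gm1965, Gm6507 and Gm839, with log2 fold changes of 0.20, 1.18, −0.51 and 1.59. Only Gm1965 and Gm839 passed the test. Transcripts of Gm6507 and Gm839 were 85.8% identical over 400 bases, so reads could in part be shared between them. Closer copies existed elsewhere: Gm48422 and Gm48829 were 98.9% identical over 2706 bases, Gm46430 and Gm47467 95.9% over 395 bases and E330010L02Rik and E330016L19Rik 95.8% over 674 bases. Values of such pairs may be divided between the copies in a way that moves each of them.

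The sets joined by matching starts are described in turn. Of the 22 members of the largest set, 1 fell and 1 rose, with a median log2 fold change of 0.14, beside 29.7% lower and 1.34% higher of all features. With TMM the counts were 1 lower and 11 higher, beside 12.7% and 12.9%. The one that fell was Gm44172, with 2.41, 19.5 and 73.0 normalised reads in TBP LOF against 35.4, 114 and 205 in mIGG CONTROL (log2 fold change −1.92, edgeR adjusted p = 0.000162). The one that rose was Gm40910, whose reads were 42.2, 111 and 381 against 8.43, 64.2 and 157. The set of 7 was joined through different transcripts of A730082K24Rik and holds no common start. Of these 7, 0 fell and A730082K24Rik rose, at a median of 0.43, and 6 were higher with TMM, beside the same shares of all features.

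All 4 members with the zinc finger type of start fell with ERCC scaling, at a median log2 fold change of −3.18, and 3 were lower with TMM, beside 29.7% and 12.7% of all features. Besides Gm47467, Gm46430 had 0, 1.59 and 12.1 normalised reads in TBP LOF and 8.13, 34.3 and 75.8 in mIGG CONTROL (log2 fold change −3.35 ± 0.53 SE, edgeR adjusted p = 1.38e-06). EU599041 had 0, 3.69 and 12.9 reads against 12.2, 33.7 and 80.6 and fell by 3.01 (edgeR adjusted p = 8.46e-06). In each of the 2, only the highest TBP LOF embryos reached the lowest CONTROL embryos. Gm40977 fell less, by 1.15 (± 0.33 SE, edgeR adjusted p = 0.00448), and missed the threshold with TMM. Because Gm46430 and Gm47467 are near copies, they are not separate measures. Gm26563 and Gm26762 shared another start and fell by 1.54 and 1.29 with ERCC scaling, but neither was called with TMM. Gm48306, described above, shared its start with 9830004L10Rik, which did not pass the test at a log2 fold change of 0.39 but was higher with TMM. The 96 members without a shared start held 41 that fell and 6 that rose, at a median of −0.58 with ERCC scaling, beside 29.7% and 1.34% of all features. With TMM 22 of the 96 were lower and 28 higher, at a median of 0.24, beside 12.7% and 12.9%. The sets were described after the values had been seen, and no test was made between them.

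**Figure D3:**
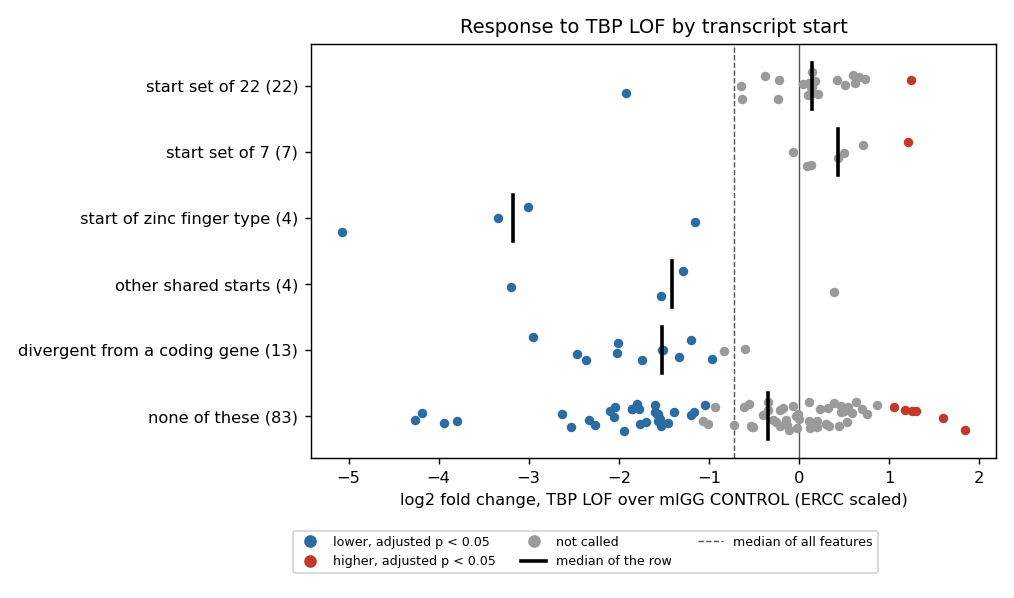
Log2 fold change upon TBP LOF, scaled to ERCC (horizontal axis), of each member (points) in the sets joined by matching transcript starts, beside members that start next to a coding gene and the rest. The 22 members of the largest set centre on 0.14, and all 4 with the start of zinc finger type lie between −5.07 and −1.15. Those labelled divergent, by opposite strands and near starts alone, lie between −2.95 and −0.60. With TMM all values stand higher and 11 of the 22 passed as higher.

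A lincRNA can share a promoter region with a coding gene that is read in the other direction. By the rule fixed for neighbours, 13 members started within 1000 bases of the start of a coding gene on the other strand, at distances from 38 to 902 bases. The rule did not ask that the genes run apart, so some pairs called divergent may run across each other. Of these, 11 fell and 0 rose, with a median log2 fold change of −1.53, and with TMM 5 were lower and 0 higher. All features fell in 29.7% with ERCC scaling and were lower in 12.7% with TMM, and coding genes past the minimum of 20 reads in 57.5% and 27.9%. For 10 of the 13 the coding gene fell as well with ERCC scaling, and its lincRNA fell in all 10, whereas with TMM 5 of the coding genes were lower and 1 higher. The 2 log2 fold changes of a pair lay within 0.6 of each other in 12 of 13, with a median gap of 0.34. The limit of 0.6 was not fixed beforehand, and gaps between unpaired lincRNAs and coding genes were not measured. As 7 of the 13 also overlapped a coding gene and no source used here says whether counting used strand, some reads may be shared within a pair. The same limit holds beyond these pairs, since 21 of all 133 members had exons that overlapped a coding gene on either strand. Of the 21, 14 fell and 1 rose with ERCC scaling, beside 29.7% and 1.34% of all features. With TMM 6 were lower and 3 higher, beside 12.7% and 12.9%.

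4930455D15Rik started 62 bases from Wdr36, a gene for a protein of ribosome assembly. It had 2.93, 13.9 and 50.7 normalised reads in TBP LOF and 93.7, 116 and 262 in mIGG CONTROL, and fell by 2.95 (± 0.40 SE, edgeR adjusted p = 5.67e-08), while Wdr36 fell by 2.43. Gm48746 started 902 bases from Rpp40, which encodes a subunit of RNase P. It was at 2.20, 6.89 and 9.83 reads against 16.9, 34.9 and 74.2 and fell by 2.46, while Rpp40 fell by 2.35. 4933408J17Rik varied least when all rIGG CONTROL embryos were taken, though not without those that stand apart. It fell by 1.51 (edgeR adjusted p = 0.000179) beside Snrpf, a core protein of spliceosomal snRNPs, which fell by 1.53. A430105J06Rik fell by 2.01 beside Rrp15, another gene of ribosome assembly, which fell by 1.71. Its mean raw count was 21.0 in mIGG CONTROL but 15.5 in rIGG CONTROL. With TMM the calls of 4933408J17Rik, A430105J06Rik and 2010110K18Rik, given next, were lost (edgeR adjusted p 0.117, 0.0584 and 0.664). 2010110K18Rik fell by 0.96 beside Cdc25c, a phosphatase that drives entry into mitosis, which fell by 1.51.

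The pair that differed was Snhg10 and Glrx5, a glutaredoxin gene. Snhg10 had 1.23, 8.71 and 36.5 normalised reads in TBP LOF and 12.2, 29.5 and 70.5 in mIGG CONTROL and fell by 1.53 (± 0.45 SE, edgeR adjusted p = 0.00593). Glrx5 had a log2 fold change of −0.08 (edgeR adjusted p = 0.892). The difference within the pair was not tested. Gm17586 beside Mafg and Gm26582 beside Cdkl2 did not pass the test, with log2 fold changes of −0.84 and −0.76 in the first pair and of −0.60 and −0.57 in the second.

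**Figure D4:**
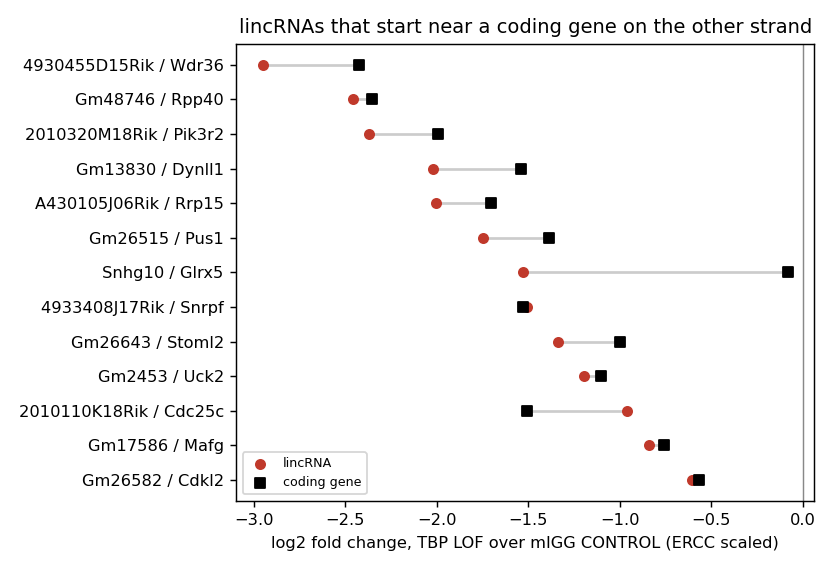
Log2 fold change upon TBP LOF, scaled to ERCC, of 13 lincRNAs and of the coding gene that starts near each on the other strand, 1 pair in each line. Both points lie left of 0 in every pair, and they are within 0.6 of each other in all but Snhg10 and Glrx5; with TMM, which shifts all values up, 5 of the 13 lincRNAs were lower.

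Sequences before the starts were available for fewer members. RefSeq promoters (GRCm38.p6, 250 bases before to 50 after the start) lay within 500 bases of the GENCODE start for 39 of 133. TATAAA was found on either strand in 6 of the 39 (15.4%, against 13.6% of 32851 promoters). On the sense strand between 40 and 20 bases before the start, it was found in B020004C17Rik, C86187 and Gm19299, which is 7.69% against 1.99% of all promoters. CCAAT was found in 11 (28.2% against 37.4%), GGGCGG also in 11 (28.2% against 35.7%) and the forkhead letters GTAAACA in 0 (3.65%). A match is a description of letters and not a binding site.

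Promoters of 3 members are shown because lincRNAs with TATAAA in that window stood on both sides of the threshold upon TBP LOF. B020004C17Rik (chr14:57014884-57015183, plus strand) fell, whereas C86187 (chr7:46975862-46976161, minus strand) did not pass the test. 1600025M17Rik (chrX:56317358-56317657, plus strand) fell and held GGGCGG but not TATAAA. Capitals mark TATAAA on either strand in the first 2, where overlapping matches form 1 run, and GGGCGG in the last.
B020004C17Rik: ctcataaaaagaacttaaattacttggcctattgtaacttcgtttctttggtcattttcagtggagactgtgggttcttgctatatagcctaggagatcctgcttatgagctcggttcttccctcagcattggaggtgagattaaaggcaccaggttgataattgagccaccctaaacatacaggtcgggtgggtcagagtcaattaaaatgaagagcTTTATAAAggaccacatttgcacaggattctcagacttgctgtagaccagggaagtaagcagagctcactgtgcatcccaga
C86187: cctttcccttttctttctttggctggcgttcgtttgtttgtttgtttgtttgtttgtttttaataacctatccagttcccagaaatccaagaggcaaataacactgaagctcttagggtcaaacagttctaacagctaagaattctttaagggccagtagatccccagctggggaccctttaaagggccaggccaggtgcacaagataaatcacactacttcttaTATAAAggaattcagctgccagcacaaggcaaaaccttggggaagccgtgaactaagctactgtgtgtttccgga
1600025M17Rik: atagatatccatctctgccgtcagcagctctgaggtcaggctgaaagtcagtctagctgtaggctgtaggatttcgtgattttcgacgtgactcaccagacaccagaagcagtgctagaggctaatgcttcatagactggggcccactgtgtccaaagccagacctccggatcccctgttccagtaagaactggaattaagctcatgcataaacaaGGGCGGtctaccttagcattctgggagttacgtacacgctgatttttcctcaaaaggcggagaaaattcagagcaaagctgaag

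The promoters were also split by their CG content. Of the 16 members with 10 or more CG dinucleotides in these 300 bases, 10 fell and 0 rose upon TBP LOF, at a median log2 fold change of −1.53. Of the 23 with fewer, 5 fell and 4 rose, at a median of 0.20. Of all features tested, 29.7% fell and 1.34% rose with ERCC scaling, and 12.7% were lower and 12.9% higher with TMM. With TMM, 5 of the 16 were lower and 1 higher, and 4 of the 23 were lower and 14 higher, at medians of −0.73 and 1.08. The 11 members with GGGCGG held 7 that fell, at a median of −1.53, and the 28 without it held 8, at a median of 0.10. With TMM 5 of the 11 were lower and 1 higher, and of those without it 4 were lower and 14 higher. Of the 6 members with TATAAA on either strand 1 fell, at a median of 0.55, and of those without it 14 fell, at a median of −0.61, with ERCC scaling. The motif letters were fixed with earlier results known, the limit of 10 CG was set after the values had been seen, and no test was made.

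Upon FOXJ3 LOF, whose embryos did not choose the members, 0 of 133 lincRNAs passed the threshold (edgeR, TMM with batch as a term), beside 0.0102% of 19517 features. DESeq2 also called 0. At an unadjusted p under 0.05 there were 8 members (edgeR), against 5.7% of all features. Log2 fold changes of members ran from −1.15 to 0.63 with a median of −0.06, against −0.03 for all features, and 114 of 133 lay within 0.5 of no change. This does not show that no lincRNA differed between the groups. Without rIGG CONTROL embryos 2 and 3 of batch 1, again 0 members passed, beside 0.0153% of 19666 features, with 12 at an unadjusted p under 0.05 (edgeR), against 6.26% of all features.

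The smallest p belonged to Gm48399 on chromosome 13. It had 40.5, 64.2 and 118 normalised reads in FOXJ3 LOF and 19.8, 46.4 and 71.0 in rIGG CONTROL (log2 fold change 0.63 ± 0.20 SE, edgeR adjusted p = 0.656), with 0.55 in batch 1 and 0.72 in batch 2. D6Ertd474e followed with 88.3, 180 and 345 reads against 103, 256 and 598 (log2 fold change −0.61 ± 0.22 SE, edgeR adjusted p = 0.784). Its value was −1.05 in batch 1 but −0.10 in batch 2. Gm4961 and Obox4-ps35, a pseudogene of the Obox homeobox family, had log2 fold changes of −0.54 and −0.55 and likewise stood mainly in batch 1, at −0.91 and −0.87, against −0.09 and −0.19 in batch 2. For the 8 lincRNAs that rose upon TBP LOF, batch 1 values were all below 0, as for Gm839 at −1.68, and batch 2 values all above 0, as for Gm839 at 0.74. Embryos 2 and 3 named above belong to the rIGG CONTROL of batch 1. Without them the batch 1 values of these 8 lay between −0.56 and 0.27, 6 of them below 0, and that of Gm839 was −0.31. Over both batches D6Ertd474e was then at −0.31, Gm4961 at −0.20, Obox4-ps35 at −0.40 and Gm48399 at 0.66. The test of the batch difference called 0 of 19517 features.

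The 2 effects were set against each other in a single fit of all 47 embryos. The effect of TBP LOF was lower than that of FOXJ3 LOF in 45 members and higher in 7 (edgeR, ERCC scaling), beside 28.0% and 0.911% of 19657 features. With TMM the counts were 22 and 38, beside 10.9% and 10.6%. The 2 rIGG CONTROL embryos that stand apart were picked after the values had been seen and stood high for most lincRNAs that rose. Leaving them out therefore lowers the differences of these lincRNAs by the choice itself. Without them 44 members were lower and 2 higher (edgeR, ERCC scaling), beside 27.4% and 0.46% of 19346 features. The TMM fit was not repeated without them. For Gm45864 the difference was −4.45 on the log2 scale (± 0.58 SE, edgeR adjusted p = 3.2e-08) and for Snhg6 it was −2.92 (± 0.48 SE, edgeR adjusted p = 2.96e-06). For Gm839 it was 2.08 (± 0.56 SE, edgeR adjusted p = 0.00259) and for Gm29125 it was 1.94 (± 0.48 SE, edgeR adjusted p = 0.00104). These were the 2 that still passed without the 2 embryos, Gm839 at 1.27 (edgeR adjusted p = 0.0262) and Gm29125 at 1.60 (edgeR adjusted p = 0.00538). Gm1965, AA545190, Gm29811, A730082K24Rik and Gm15507 then missed the threshold, at differences between 0.86 and 1.04. Those of Gm45864 and Snhg6 were −4.22 and −2.70. For Gm32913, which fell upon TBP LOF and had −1.15 upon FOXJ3 LOF, the difference of −0.65 did not pass (± 1.04 SE, edgeR adjusted p = 0.701). The 2 experiments differ in antibody, IgG and library batch, which cannot be told apart from the target.

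**Figure D5:**
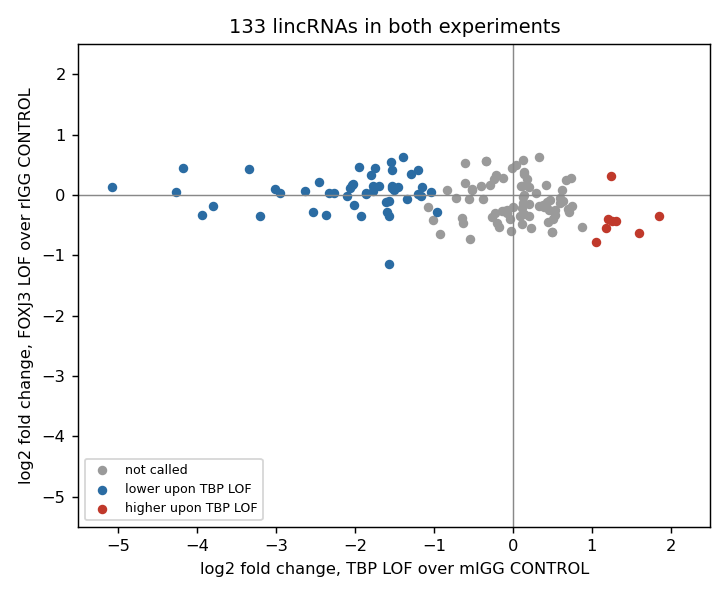
Log2 fold change upon TBP LOF over mIGG CONTROL (horizontal axis, ERCC scaling) and upon FOXJ3 LOF over rIGG CONTROL (vertical axis, TMM) for 133 lincRNAs, 1 point each. Points spread from −5.07 to 1.84 along the horizontal axis and from −1.15 to 0.63 along the vertical axis.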

How the data were processed

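Smart-seq+5′ libraries of single late 2-cell embryos were trimmed with Trimmomatic by the authors, who mapped reads of transcript 5′ ends to GRCm38 with STAR 2.7.11a, used the second mate alone and counted genes (gencode M20), ERCC spike-ins and TE families with TEcount. The deposited values are estimated counts (expected counts), whole numbers without normalization, so that rounding changed nothing. How reads of several copies were shared, and whether strand was used, is stated by no source used here. Files were assigned to groups by the sample titles.

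Embryos needed at least 500000 reads, 1000 genes, at most 10% mitochondrial and at most 15% ERCC reads, which 47 of 49 met. Features with at least 1 read in 25% of embryos were tested with edgeR 4.0.16 (quasi-likelihood test, two-sided, R 4.3.3), and p-values were adjusted by Benjamini-Hochberg over all genes and TE families at a threshold of 0.05. Size factors for TBP came from the 42 ERCC transcripts found in each embryo. FOXJ3 was scaled by TMM with batch as a covariate. The difference of the effects was fitted over all embryos with ERCC scaling. Normalised read counts are counts divided by these factors, scaled to a geometric mean of 1 within each experiment, and levels of the 2 experiments are thus not on 1 scale. Total reads per embryo were given in the results, and the spread between embryos carries the error, since reads amplified by PCR and lacking molecular identifiers may repeat a molecule. DESeq2 1.42.0 served as an alternative. The fits were tested on simulated counts.

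The members and lists were chosen with earlier results of these data known. Gene types, starts and neighbours came from GENCODE M21, which held 54809 of the 54838 gene identifiers, and starts were aligned with blastn 2.17.0 (E-value at most 1e-05). Named genes were the lincRNAs given as markers, the 10 with most reads in mIGG CONTROL, the 10 lower and 6 higher with the smallest adjusted p upon TBP LOF, the 4 with the smallest p upon FOXJ3 LOF, a list of lincRNAs with a described role, the 3 most and 3 least variable in rIGG CONTROL and those next to the limit. Members of start sets and divergent pairs named beside these were chosen after their values were seen. Alternatives covered scaling, test, filters, embryos, the TElocal tables, the replicate block, the embryos that chose the members, the count limit and, added after seeing the data, 2 rIGG CONTROL embryos left out. Embryo numbers shared by the groups were not taken to pair the embryos, since no label ties them to an animal or day and not every pair correlated above 0.1.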

Additional observations from a re-analysis of the deposited data

Results flagged for a closer look

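Among the named lincRNAs, 84 groups of 9 embryos were screened for an embryo whose gap to its neighbour was large for the range of its group. The limit marks about 1 in 20 groups of normally distributed values. Read counts were screened without a log, and each embryo marked was the highest of its group. How often chance marks such counts was not measured. Values are normalised read counts, and the next embryo is given beside each.

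In TBP LOF, embryo 8 stood apart for Gm48436, with 2439 against 950, for its relative Gm49064, with 1202 against 603, and for 4933408J17Rik, with 210 against 120. Embryo 10 stood apart for Gm26917, with 770 against 201. Embryo 6 held 9.66 reads of Gm47467, the next 4.76. Embryo 2 held 505 reads of Malat1, the next 270, and embryo 1 held 18.4 of Gm47648, the next 9.53.

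In mIGG CONTROL, embryo 8 stood apart for 4933408J17Rik, with 611 against 330, for 4930455D15Rik, with 262 against 157, and for Gm48746, with 74.2 against 42.0. Embryo 10 stood apart for Snhg6, with 278 against 146, and for Epb41l4aos, with 87.3 against 45.7. Embryo 2 stood apart for the 2 lincRNAs that rose most upon TBP LOF, Gm839 with 275 against 140 and Gm29125 with 102 against 63.2. Embryo 6 stood apart for Gm2694, with 250 against 145, and for Gm1070, with 74.6 against 34.2.

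The effect of TBP LOF differed from that of FOXJ3 LOF in 52 members by the test of the difference (edgeR, ERCC scaling). It was lower in 45 and higher in 7, beside 28.0% and 0.911% of 19657 features. With TMM it was lower in 22 and higher in 38, beside 10.9% and 10.6%. Without the 2 rIGG CONTROL embryos that stand apart it was lower in 44 and higher in 2.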

How the results depend on the processing

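Scaling moved the shares of members called upon TBP LOF. Members that were lower came to 20.3% with TMM, 19.5% with DESeq2 size factors and 18.4% with TMM among the 158 chosen on rIGG CONTROL, against 36.8%. Members that were higher came to 34.6%, 36.8% and 40.5% in the same order, against 6.02%. For the difference of the effects, TMM gave 16.5% lower and 28.6% higher, against 33.8% and 5.26%, and leaving out the 2 rIGG CONTROL embryos that stand apart, added after seeing the data, gave 33.1% and 1.5%. With the embryo number as a replicate block, 37.6% were lower and 10.5% higher, although no label ties the numbers to an animal. Correlations within pairs lay between −0.06 and 0.17 in the TBP embryos and between −0.23 and 0.28 in the FOXJ3 embryos. Shares of all features are not given for the block or for DESeq2 size factors. Whether all features moved likewise under these settings is therefore not shown. The other settings kept both shares within 1.5 times: the DESeq2 Wald test (33.8% and 6.02%), the TElocal tables, all embryos, filterByExpr, no filter, limits of 10 (35.9% and 6.36%) and 50 reads (43.8% and 4.69%), members chosen on rIGG CONTROL, also without the 2 embryos, and, added after seeing the data, members without the 3 genes of the rRNA stretch or without shared starts. Leaving out 1 embryo gave 33.8% to 38.3% lower and 6.02% to 8.27% higher. FOXJ3 LOF gave 0 calls among members under each setting, the replicate block included.

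Members stayed above the median of all features upon TBP LOF under each setting, by 0.25 (replicate block) to 0.65 (filterByExpr) on the log2 scale. Of 42 named lincRNAs, TMM and DESeq2 size factors each took 7 calls upon TBP LOF and added 4, and the block added C86187 and Malat1. No called value changed sign. Why scaling and the block moved the shares was not tested. Of the members, 97 had a mean under 100 raw reads in mIGG CONTROL, and the change that could be detected at such counts was not measured.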
